A study of Mus musculus with 3 samples.

Results

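Nuclear RNA of mouse macrophages held transcripts of 156 genes named as solute carriers, out of 394 annotated genes with such a symbol and 55536 annotated genes in all. Members are genes whose symbol starts with Slc and a digit or with Slco and whose TPM was at least 1 in each of 3 libraries, which is called detected below. TPM is a gene's transcript abundance per length, scaled to a sum of 1000000 in each library. Because the threshold on TPM chose the members, their levels are given as a description without a test. A further 8 matching genes, carriers of iron and other metals, hexoses, arginine or cystine (Slc40a1, Slc11a1, Slc11a2, Slc2a1, Slc2a3, Slc2a6, Slc7a2 and Slc7a11), were left out by name. Of these, 5 were detected and 3 were not, so that 161 of the 394 genes, or 40.9%, passed the threshold, against 42.8% of 22028 annotated protein-coding genes.

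The cells were macrophages grown from the bone marrow of C57BL/6J mice, and the RNA came from their nuclei, which the labels describe further as the nucleoplasmic fraction, depleted of ribosomal RNA and sequenced as total RNA. They had received lipid A, the lipopolysaccharide moiety that activates TLR4, at 100 ng/ml for 12 h. After 12 h of washout came a second dose of 100 ng/ml, and nuclei were taken 15 min later. All 3 libraries belong to this group and are numbered as biological replicates under a single donor identifier, with 1 µg of input RNA in replicates 1 and 3 and 500 ng in replicate 2. The sources used here do not say whether separate mice were used, so p-values below measure only the spread between these samples. No untreated library is analysed here, so no level is described as induced or repressed.

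Solute carriers move ions, metals, nutrients and metabolites across membranes by exchange, cotransport or facilitated diffusion, without hydrolysing ATP themselves. They are grouped into numbered families by sequence, and many families serve a single kind of substrate or a single organelle, such as Slc25 in the inner mitochondrial membrane and Slc35 in the Golgi apparatus and endoplasmic reticulum. In macrophages, carriers of lysosomes and phagosomes return digested peptides, nucleosides, metals and haem to the cytosol, and lysosomal members of the Slc15 family are tied to signalling from Toll-like receptors.

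The libraries held 19312032 to 23826101 expected counts over annotated genes, of which the members took 1.23% to 1.27%. All 10 macrophage markers checked, among them Adgre1, Csf1r, Lyz2 and Ctss, were detected, with a summed level of 3390 to 4735 TPM. None of 22 markers of granulocytes, T, NK, B, erythroid cells and fibroblasts was detected, and their summed level was 0.9 to 2.02 TPM. The short nuclear RNA Rn7sk held 28.4% to 33.4% of TPM, and mitochondrial messenger RNAs held 5.69% in replicate 2 against 3.68% in replicate 1 and 1.87% in replicate 3. In bulk RNA, fewer cells with a transcript and less of it per cell cannot be told apart.

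The members spanned a wide range of levels and a few genes held much of the signal. The mean TPM was at least 100 in 5 members, from 10 to under 100 in 72 and under 10 in 79. Their summed level was 2780, 3153 and 2888 TPM in replicates 1, 2 and 3. On nuclear protein-coding genes alone, members took 1.41% ± 0.0148 of TPM (mean ± SD over the libraries, n = 3, here and below), a share that differed little between libraries. The 5 highest members held 26.4% ± 2.03 of all member TPM and the 20 highest held 50.3% ± 1.87. The median member stood at 9.61 ± 1.12 TPM, against 8.53 ± 0.639 TPM for all detected protein-coding genes, a difference within 1 SD of the members' value. Both medians come from the same libraries, so this SD includes shifts that they share, and the difference was not tested.

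The most abundant member was Slc6a6, the sodium-dependent carrier of taurine and beta-alanine. It had 176, 290 and 248 TPM in replicates 1, 2 and 3 and ranked 76 among nuclear protein-coding genes by mean TPM. Slc15a3, a proton-coupled carrier of histidine and small peptides in lysosomes, followed with 177, 142 and 184 TPM. Slc3a2, the heavy chain (4F2hc) that takes several amino acid carriers of the Slc7 family to the plasma membrane, had 134, 152 and 150 TPM. Their ranges overlap between neighbours in this order, and Slc15a3 was slightly above Slc6a6 in replicate 1. Slc6a6 and Slc3a2 did not overlap. Slc43a2, a facilitated carrier of large neutral amino acids (LAT4), stood at 107, 150 and 121 TPM. Slc31a2, a relative of the copper importer found in endosomes and lysosomes, had 80.1, 106 and 114 TPM. These 5 genes ranked 76 to 277 among nuclear protein-coding genes, and replicate 1 held the lowest value for all of them except Slc15a3.

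**Figure D1:**
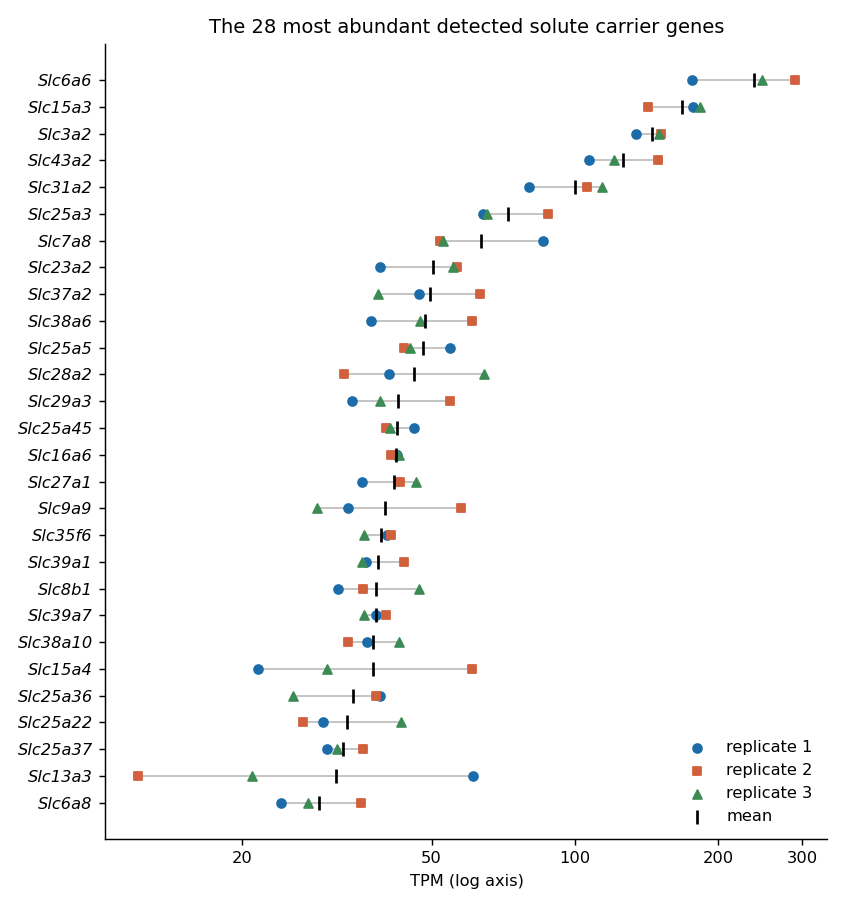
TPM on a log axis for the 28 members with the highest mean, with a symbol for each of the 3 libraries, a grey line over their range and a black tick at the mean. Slc6a6 leads with a mean of 238 TPM, Slc13a3 and Slc15a4 have the widest ranges, and most neighbours in the order overlap.

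Below these, the level fell off without a step. Slc25a3, the mitochondrial phosphate carrier, averaged 72.4 ± 13.4 TPM, and Slc7a8, a light chain for neutral amino acids (LAT2), 63.5 ± 19.2 TPM. Between 40 and 51 TPM lay Slc23a2, the sodium-dependent vitamin C carrier, Slc37a2, a sugar-phosphate exchanger of the endoplasmic reticulum, Slc38a6, the ADP/ATP exchanger gene Slc25a5, the nucleoside carriers Slc28a2 and Slc29a3, Slc25a45, Slc16a6 and the fatty acid transport protein gene Slc27a1. Of the 26 members that reached the 20 highest in at least 1 library, 14 did so in every library. Spearman's rho between pairs of libraries was 0.965 to 0.978 over the 156 members, as a description across genes that share their libraries.

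Detection differed widely between families. Among carrier families, all 4 Slc37 genes and 34 of 47 Slc25 genes were detected, as were 19 of 27 Slc35 and 9 of 14 Slc39 genes. In contrast, 3 of 25 genes of Slc22 (organic cations and anions) passed, as did 2 of 21 of Slc6 (neurotransmitters, amino acids and osmolytes) and 1 of 15 of Slco (organic anions). None of 13 Slc5 genes, the family of sodium-glucose cotransporters, passed. The Slc6 family thus had few detected genes and the most abundant member, since Slc6a6 and the creatine carrier gene Slc6a8 were its only detected genes. These counts use the threshold that chose the members and were not tested.

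**Figure D2:**
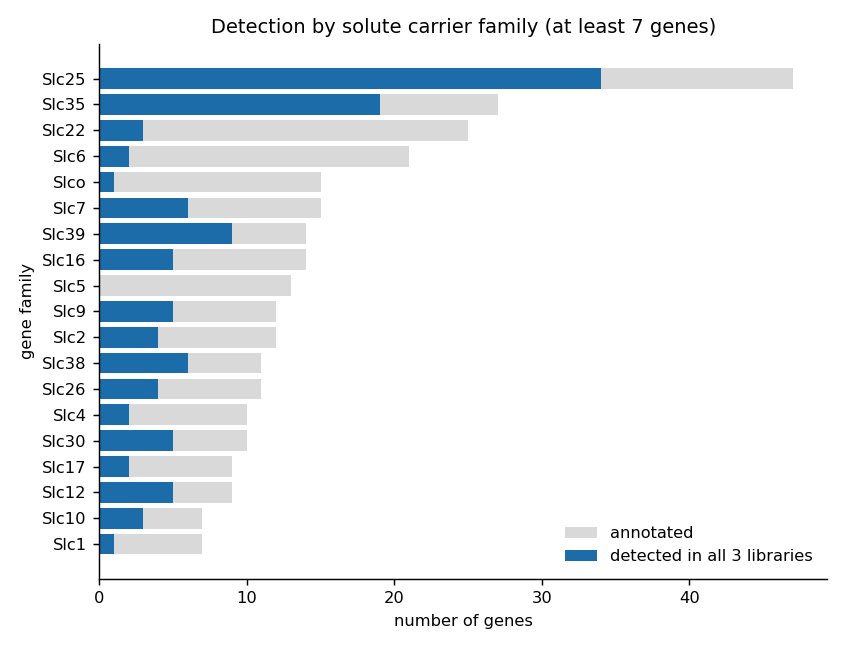
Number of annotated genes (grey) and of genes with at least 1 TPM in all 3 libraries (blue) in each carrier family of 7 or more genes, with the 8 genes left out by name counted. Slc25 and Slc35 have 34 of 47 and 19 of 27 genes detected, and Slc5 has 0 of 13.

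Grouped by the substrate of their family, members for amino acids and peptides held the largest part, 35.4% ± 1.70 of member TPM, in 22 of 67 annotated genes. Their median was 21.6 ± 3.84 TPM, and 15 of the 22 had a mean of at least 10 TPM. The 3 nucleoside carriers had the highest class median, 35.2 ± 3.24 TPM. The 7 members for organic ions and bile acids, of 51 annotated genes, had a median of 2.59 ± 0.364 TPM, the lowest of the classes with more than 1 member. The other larger classes had medians of 8.14 ± 1.03 TPM (mitochondrial carriers), 8.22 ± 1.09 TPM (nucleotide sugars), 11.1 ± 1.11 TPM (inorganic ions) and 11.5 ± 1.88 TPM (metals and haem). The first pair and the second pair each differed by less than the SD of either class.

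**Figure D3:**
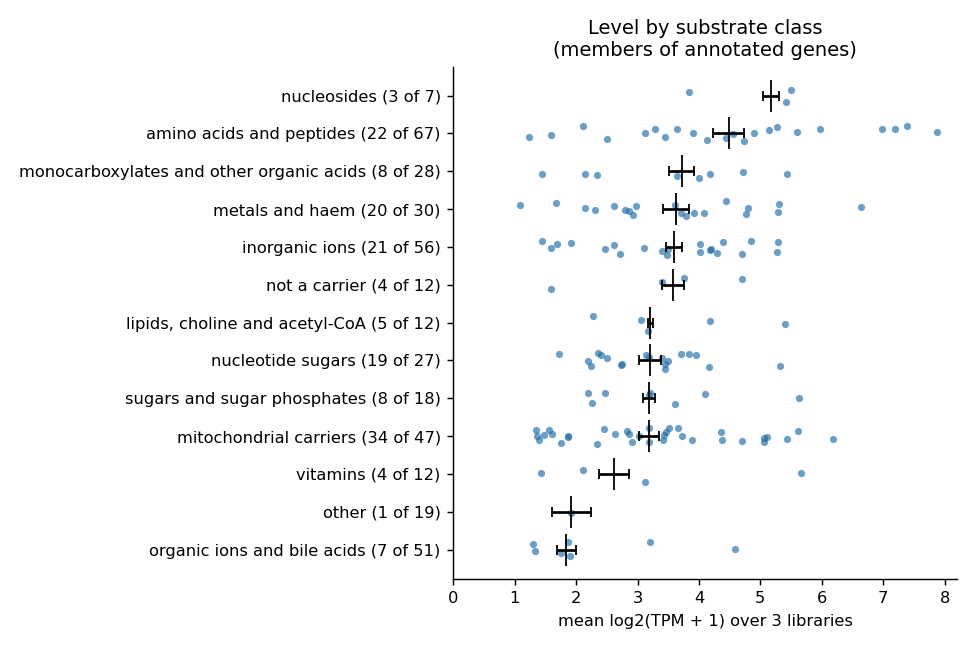
Mean log2(TPM + 1) of each member (blue points, spread vertically at random) by substrate class, with the class median and its SD over 3 libraries in black and the number of members of annotated genes in parentheses. Nucleosides and amino acids lie highest and organic ions and bile acids lowest, with wide ranges inside the larger classes.

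Among amino acid carriers, nuclear transcripts of the heavy chain gene and its light chain genes were present at unequal levels. Protein was not measured here. Slc3a2 stood at 2.44 ± 0.759 times Slc7a8, and the ratio was 1.57 in replicate 1 against 2.92 and 2.85 in replicates 2 and 3. The other light chains that pair with it were lower: Slc7a7, the exchanger of cationic and neutral amino acids, averaged 14 ± 0.925 TPM, the leucine carrier gene Slc7a5 (LAT1) 3.33 ± 0.439 TPM and Slc7a6 2.04 ± 0.590 TPM. Slc7a8 exceeded Slc7a5 in every library, by 14.1 to 30.2 times. The glutamine carrier gene Slc1a5 (ASCT2) was at 4.94, 4.97 and 4.08 TPM, while Slc38a1 and Slc38a2, sodium-coupled neutral amino acid carriers encoded side by side on chromosome 15, averaged 16.7 ± 3.13 and 11.8 ± 2.92 TPM. Slc7a1, the main cationic amino acid carrier of many cells, had 8.86 ± 2.20 TPM.

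Several named members carry amino acids or peptides in lysosomes. Slc38a9, the arginine-sensing carrier that signals to mTORC1, averaged 26.1 ± 6.00 TPM, Slc36a1, a proton-coupled carrier of small amino acids, 22.6 ± 2.44 TPM, and Slc38a7, which exports glutamine in human cells, 21.2 ± 5.18 TPM. Slc36a4, of the same family as Slc36a1, was lower at 7.94 ± 2.57 TPM. Slc15a4, the peptide and histidine carrier that TLR7 and TLR9 responses need in mice, had 21.6, 60.9 and 30.2 TPM. In replicate 2, 48.9% of its TPM lay on a single short transcript, Slc15a4-211, of 166 bases, which had 5.69 expected counts there and 0 in the other libraries. Without transcripts of an effective length under 100 bases, Slc15a4 had 20.7, 31.2 and 28.7 TPM, and replicates 2 and 3 no longer stood apart. The kallisto-format values of the gene, scaled to a common sum over nuclear protein-coding genes, were 101, 163 and 162. With such short transcripts included, Slc15a3 exceeded Slc15a4 by 8.18, 2.34 and 6.08 times in replicates 1, 2 and 3. Only 3 members had over 10% of their TPM on such transcripts in any library, the others being Slc16a7 and Slc37a1.

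Mitochondrial carriers formed the largest family, with 34 members and 16.3% ± 0.862 of member TPM. Slc25a3 had 64.1, 87.8 and 65.3 TPM, and Slc25a5, the ADP/ATP exchanger ANT2, had 54.8, 43.8 and 45.1 TPM. Slc25a5 exceeded its paralogue Slc25a4 (ANT1) by 4.77 ± 0.398 times, in every library. Reads of near-identical copies could be split between such paralogues by the authors' counting. Of the carriers that link the tricarboxylic acid cycle to the cytosol, the dicarboxylate carrier gene Slc25a10 averaged 25.2 ± 3.29 TPM, the oxoglutarate carrier gene Slc25a11 19.7 ± 0.883 TPM and the citrate carrier gene Slc25a1 9.71 ± 0.501 TPM. The glutamate carrier gene Slc25a22 was at 33.2 ± 8.70 TPM. The aspartate-glutamate exchanger genes Slc25a12 and Slc25a13 were at 12.3 ± 2.40 and 2.68 ± 0.521 TPM. The mitoferrin genes, which bring iron into mitochondria, were both present, Slc25a37 at 32.5 ± 2.98 TPM and Slc25a28 at 19.5 ± 0.543 TPM. At the low end stood Slc25a14, Slc25a47 and Slc25a35, each under 2 TPM on average.

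Metal and haem carriers had 20 members. The copper genes Slc31a2 and Slc31a1 lie on the plus strand of chromosome 4, at chr4:62262562-62298411 and chr4:62360727-62391769 (mm10, counted from 1). Slc31a1, the plasma membrane copper importer CTR1, had 21.1, 23 and 18.4 TPM, and Slc31a2 exceeded it by 3.79, 4.62 and 6.21 times in replicates 1, 2 and 3. The 9 detected Slc39 genes, which bring zinc and related metals into the cytosol, summed to 142 ± 10.6 TPM, led by Slc39a1 (38.6 ± 4.43 TPM) and Slc39a7 (38.2 ± 2.05 TPM). The 5 detected Slc30 genes, most of which move zinc out of the cytosol, summed to 59.5 ± 5.39 TPM. They were led by the plasma membrane exporter gene Slc30a1 at 16.1 ± 2.77 TPM. Slc39a14 had 5.14, 4.0 and 2.95 TPM, and Slc39a8 lay just below the threshold with 1.80, 1.71 and 0.99 TPM. Slc48a1, which moves haem from phagolysosomes into the cytosol, had 36.2, 26.1 and 20.2 TPM, and its exons share bases with Hdac7 on the opposite strand.

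Ion carriers had 21 members, and several of those at the top act on organelles. Slc9a9, an endosomal sodium-proton exchanger (NHE9), had 33.5, 57.6 and 28.7 TPM, with replicate 2 above the others. Slc8b1, the mitochondrial sodium-calcium exchanger (NCLX), averaged 38.3 ± 7.85 TPM, and Slc8a1, its plasma membrane counterpart, had 24.9, 25 and 24.8 TPM. The potassium-chloride cotransporter gene Slc12a7 had a mean of 16 ± 6.39 TPM. Slc20a1, a sodium-phosphate cotransporter, averaged 20.3 ± 3.74 TPM and Slc4a7, a sodium-bicarbonate cotransporter, 10.2 ± 1.76 TPM. The lowest ion carrier was the sodium-potassium-chloride cotransporter gene Slc12a2 at 1.74 ± 0.423 TPM.

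The lactate carrier genes differed in level. Slc16a7 (MCT2) had 12.4, 17.2 and 15.6 TPM, and 7.65, 13.5 and 8.12 TPM without short transcripts. Slc16a3 (MCT4) had 2.69, 3.24 and 4.52 TPM. Slc16a1 (MCT1) had 0.96, 0.95 and 0.47 TPM, with 63 to 148 expected counts, and so was not a member. Slc16a6, a relative of these carriers in the same family (MCT7), was higher at 42.3, 41.2 and 42.8 TPM, but its exons overlap Amz2 and Arsg on the opposite strand. Slc16a10, a carrier of aromatic amino acids, averaged 17.3 ± 3.22 TPM, and Slc17a5, the lysosomal exporter of sialic acid, 11.9 ± 4.0 TPM. Slc17a9, the vesicular nucleotide carrier, was lowest at 1.73 ± 0.408 TPM.

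The nucleoside genes Slc28a2, a sodium-coupled importer, and Slc29a3, an equilibrative carrier of lysosomes, averaged 46 ± 16.6 and 42.6 ± 10.8 TPM, while the plasma membrane carrier gene Slc29a1 (ENT1) was at 13.4 ± 2.12 TPM. Slc28a2 was highest in replicate 3, with 40.7, 32.8 and 64.6 TPM, and Slc29a3 was highest in replicate 2, with 34.1, 54.7 and 38.9 TPM. The nucleotide sugar class, assigned by family and not by the substrate of each gene, was led by Slc35f6 (39.1 ± 2.74 TPM) and Slc35b1 (16.9 ± 2.58 TPM). Slc35b1 exchanges ATP and ADP across the membrane of the endoplasmic reticulum in human cells. The UDP-galactose carrier gene Slc35a2 had 8.27 ± 1.82 TPM, the GDP-fucose carrier gene Slc35c1 5.77 ± 0.970 TPM and the CMP-sialic acid carrier gene Slc35a1 3.83 ± 1.11 TPM. Also in this class, Slc35a4 averaged 14.6 ± 2.26 TPM, and Slc35e4 was lowest at 2.30 ± 0.0651 TPM.

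Slc37a2 led the sugar and sugar phosphate carriers, with 47, 63.2 and 38.7 TPM. Slc45a4 had 16.1 ± 1.94 TPM, Slc37a4, the glucose-6-phosphate translocase, 3.84 ± 0.947 TPM and Slc2a8, the intracellular hexose carrier GLUT8, 3.57 ± 0.172 TPM. Of the vitamin carriers, Slc23a2 stood at 50.4 ± 9.90 TPM and the reduced folate carrier gene Slc19a1 at 1.70 ± 0.381 TPM. In the lipid class, Slc44a2, a choline carrier, averaged 17.4 ± 2.99 TPM and Slc33a1, which brings acetyl-CoA into the endoplasmic reticulum, 7.99 ± 0.525 TPM. Slc27a4, a fatty acid transport protein, was lowest at 3.85 ± 0.259 TPM. Slco3a1 was the only detected Slco gene, with 20.9, 17.2 and 33.5 TPM, and Slc22a5, the carnitine carrier, had 2.76 ± 0.601 TPM. The vesicular monoamine carrier gene Slc18a1 was detected at 3.27, 1.94 and 3.34 TPM. The symbol rule also took 4 genes that encode no carrier: the scaffold gene Slc9a3r1 (NHERF1), Slc7a6os, Slc4a1ap and Slc2a4rg-ps.

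At the threshold, the 5 members with the lowest minimum were near 1 TPM, such as Slc41a1 with 1.16, 1.12 and 1.12 TPM and Slc7a15 with 1.38, 1.56 and 1.15 TPM. The 5 genes just outside were Slc39a8, the thiamine carrier gene Slc19a2, the proton-coupled folate carrier gene Slc46a1, the neutral amino acid carrier gene Slc1a4 and the multivitamin carrier gene Slc5a6, whose lowest values were 0.99, 0.97, 0.93, 0.88 and 0.85 TPM. Among the 233 matching genes below the threshold, 111 had 0 expected counts in every library and 18 reached 1 TPM in 1 or 2 libraries.

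Other genes, listed by name as pumps or as carriers, gave the setting. Of 50 genes taken by an ABC family symbol alone, not all of them membrane transporters, 25 were detected. Their median was 7.28 ± 0.497 TPM, with Abce1, Abcf1, Abcf2 and Abcf3 counted. Abcc5 and the cholesterol exporter gene Abca1 led at 140 ± 24.7 and 94.1 ± 16.9 TPM. Of 23 vacuolar ATPase genes, which build the proton pump that acidifies lysosomes, 16 were detected, with a median of 30.4 ± 3.37 TPM. Of 19 carriers that have no Slc symbol, 14 were detected, with a median of 10.4 ± 0.807 TPM, led by Mfsd12 at 129 ± 29.1 TPM.

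Part of the nuclear signal lay on transcripts that the annotation calls retained-intron. Such a transcript keeps an intron that a coding transcript of the gene lacks, and in nuclear RNA it cannot be told apart from RNA not yet spliced at that intron. Of the members, 99 have at least 1 such transcript, and the median share of their TPM on these was 18.7%, 19.7% and 20.2% in replicates 1, 2 and 3. Taken as a share of expected counts, the median was 11.2%. The TPM median was 23.8%, 24.5% and 23.6% over 5980 detected protein-coding genes. The share was over 50% in 10 members, or 10.1%, against 12.8% of the protein-coding genes, and under 5% in 9, or 9.09%, against 7.89%. Spearman's rho between share and mean TPM was 0.0550 over the 99 members, as a description.

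The shares of single members ran from 0% to 100%. Slc27a1 had all of its TPM on 3 retained-intron transcripts in every library, and its coding transcripts were listed at 0. The kallisto-format share was 94.7%. Slc25a37 (mitoferrin-1) had 76.7%, 71.2% and 76.5%, all of it on Slc25a37-203, so that its coding transcript Slc25a37-201 held 18.5% of TPM. Slc52a2, a riboflavin carrier, had 58.6%, 62.1% and 67.9%. Slc1a5 had 50.9%, 92.8% and 76.2%, a wider spread than in any of the other 9 members above 50%, with 393, 314 and 311 expected counts for the gene. Slc25a40 and Slc35b4, a carrier of UDP-xylose and UDP-N-acetylglucosamine, had means of 63.0% ± 3.48 and 62.1% ± 0.786, and Slc25a53, Slc50a1, Slc4a7 and Slc38a9 lay between 50.6% and 54.9%.

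At the other end, Slc9a9 had 2.33% ± 0.863, Slc29a3 2.54% ± 1.12, Slc43a2 2.84% ± 0.878 and Slc3a2 4.62% ± 1.64. Slc6a6 and Slc15a3, the highest members, had 18.9% ± 2.84 and 20.8%, close to the median. Slc41a1 and Slc39a6 were listed at 0% in all libraries, while the kallisto-format share of Slc41a1 was 21.7%.

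**Figure D4:**
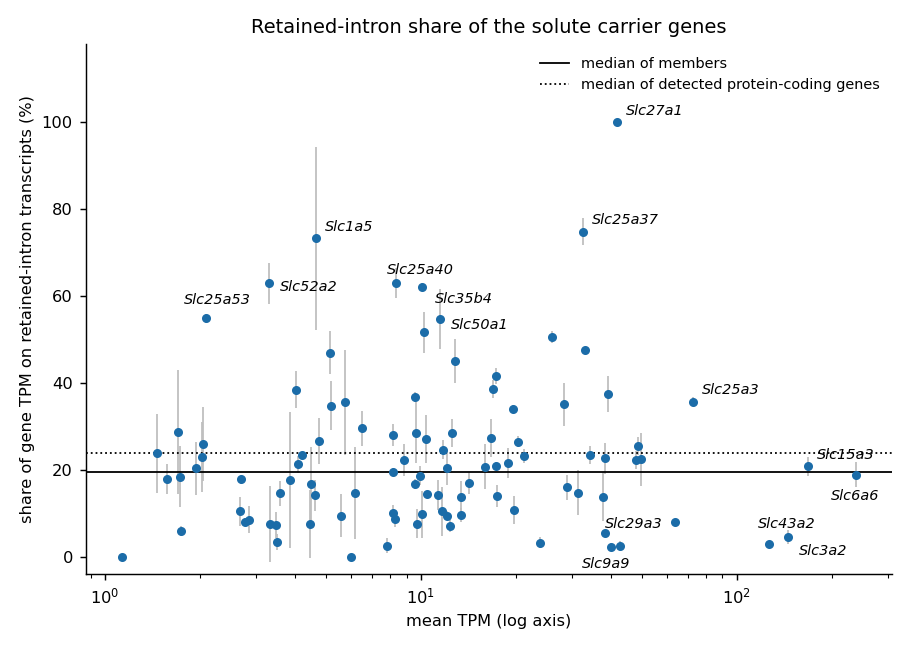
Share of a gene's TPM on retained-intron transcripts (percent, mean with SD over 3 libraries) against mean TPM on a log axis, for the 99 members with such a transcript. The solid line is the member median of 19.6% and the dotted line the median of detected protein-coding genes, 24%, and Slc27a1 at 100% stands above all others.

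The retained introns shown for 4 members start with GT and end with AG, and lie between coding exons of the gene's spliced transcript. Retained-intron transcripts held most of the nuclear TPM of these genes, as they did in other members that are not shown, such as Slc25a40 and Slc35b4. Each line gives the last 20 exon bases in lower case and the first 20 intron bases in capitals, on the gene's strand, from GENCODE M21 transcripts on mm10.
Slc27a1-203: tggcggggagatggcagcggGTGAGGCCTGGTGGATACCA
Slc25a37-203: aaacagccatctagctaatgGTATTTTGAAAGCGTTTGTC
Slc1a5-202: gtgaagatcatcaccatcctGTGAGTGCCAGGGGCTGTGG
Slc52a2-202: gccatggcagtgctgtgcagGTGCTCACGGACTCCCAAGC
They lie at chr8:71579779-71579818 on the plus strand (Slc27a1), chr14:69249374-69249413 on the minus strand (Slc25a37), chr7:16795933-16795972 on the plus strand (Slc1a5) and chr15:76540560-76540599 on the plus strand (Slc52a2).

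The introns differ in length and place. That of Slc25a37 is intron 2 of a transcript with 4 exons and has 1756 bases. Those of Slc27a1, Slc1a5 and Slc52a2 have 108, 71 and 92 bases and are introns 3, 7 and 3 of transcripts with 13, 9 and 5 exons. Slc27a1-203 and Slc52a2-202 each span 2 annotated coding introns, of which the one nearer the 5′ end is shown. Slc25a37-203 held 74.8% ± 3.15 of the gene's TPM, Slc52a2-202 63.0% ± 4.67, Slc1a5-202 61.1% ± 26.7 and Slc27a1-203 22.7% ± 1.88, with the rest of Slc27a1 on Slc27a1-202 and Slc27a1-205.

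The most abundant transcript was protein-coding in 140 members, or 89.7%, against 88.6% of detected protein-coding genes. It was a retained-intron transcript in 9 (5.77%, against 6.86% of protein-coding genes), a processed transcript without an annotated reading frame in 5 (3.21%, against 2.52%) and a target of nonsense-mediated decay in 2 (1.28%, against 2.01%). Slc25a28 (mitoferrin-2) is among the 5, with 60.2% ± 2.35 of its TPM on Slc25a28-203, and both mitoferrin genes thus had most of their nuclear TPM on transcripts annotated as non-coding. Slc35b1 and the aspartate-glutamate exchanger gene Slc25a12 are the members whose leading transcript is a decay target, at 32% ± 3.42 and 39.7% ± 3.61 of TPM.

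The 3 libraries were close for most members. The highest library was under 1.5 times the lowest in 108 of 156 members and over 2 times in 7, or 4.49%, against 6.41% of detected protein-coding genes. The median SD of log2(TPM + 1) was 0.21 over members and 0.20 over detected protein-coding genes. Replicate 2 was the highest library for 97 members, or 62.2%, against 59.6% of detected protein-coding genes.

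Each library was set against the other 2 with the edgeR quasi-likelihood test over 14350 genes, all 156 members among them. In replicate 1, 49 genes, or 0.341% of those tested, passed an adjusted p of 0.05, and 0 members were among them, with 9 members and 891 of all genes tested at an unadjusted p under 0.05, while DESeq2 called 76 genes and the single member Slc13a3. In replicate 2, 0 genes passed (0%), with 887 genes and 6 members at an unadjusted p under 0.05, and DESeq2 called 18 genes and 0 members. In replicate 3, 1 gene (0.00697%) and 0 members passed, with 6 members and 519 genes at an unadjusted p under 0.05, and DESeq2 called 33 genes and 0 members.

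The widest spread belonged to Slc13a3, the sodium-dependent carrier of succinate, oxoglutarate and other dicarboxylates (NaDC3), on chromosome 2 at chr2:165405028-165473230 on the minus strand. It had 61.2 TPM in replicate 1, against 12.1 and 21 TPM in replicates 2 and 3, and 6343 expected counts against 974 and 2009. Replicate 1 lay above the others by 1.86 on the log2 scale in edgeR, with an adjusted p of 0.132 that missed the threshold. The call depends on the tool, since DESeq2 gave an adjusted p of 0.00182 and edgeR without robust estimation 0.0493, while DESeq2 size factors in edgeR gave 0.177 and no filter on low counts 0.467. In replicate 2, against the others, Slc13a3 had a log2 difference of -1.88 and an adjusted p of 0.766, but 9.74e-08 with no filter on low counts. Both quantifications placed the libraries in the same order.

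The other members that spread most were Slc15a4, described above, Slc12a7, Slc46a3, Slc9a9, Slc9a7, Slc28a2 and Slco3a1. The potassium-chloride cotransporter gene Slc12a7 had 22.6, 9.79 and 15.7 TPM, in the order of Slc13a3. Slc46a3, a lysosomal carrier, had 6.19, 12.3 and 6.02 TPM, and Slc9a9 and Slc46a3 were both highest in replicate 2. Slc28a2 and Slco3a1 were both highest in replicate 3 and lowest in replicate 2. Slc9a7, a sodium-proton exchanger of the Golgi apparatus, had 2.73, 6.27 and 5.22 TPM. Of these genes, Slc13a3 included, none passed the edgeR test as described above in any library. In the filtered test, the log2 difference of replicate 2 from the others was -0.916 for Slc12a7 and -1.88 for Slc13a3. Calls made without a filter on low counts are given at the end, with the number of genes tested. In the filtered test, the log2 difference of replicate 1 from the others was 1.86 for Slc13a3 and -1.09 for Slc9a7. It was 0.791 for the haem carrier gene Slc48a1, which is not among these genes.

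**Figure D5:**
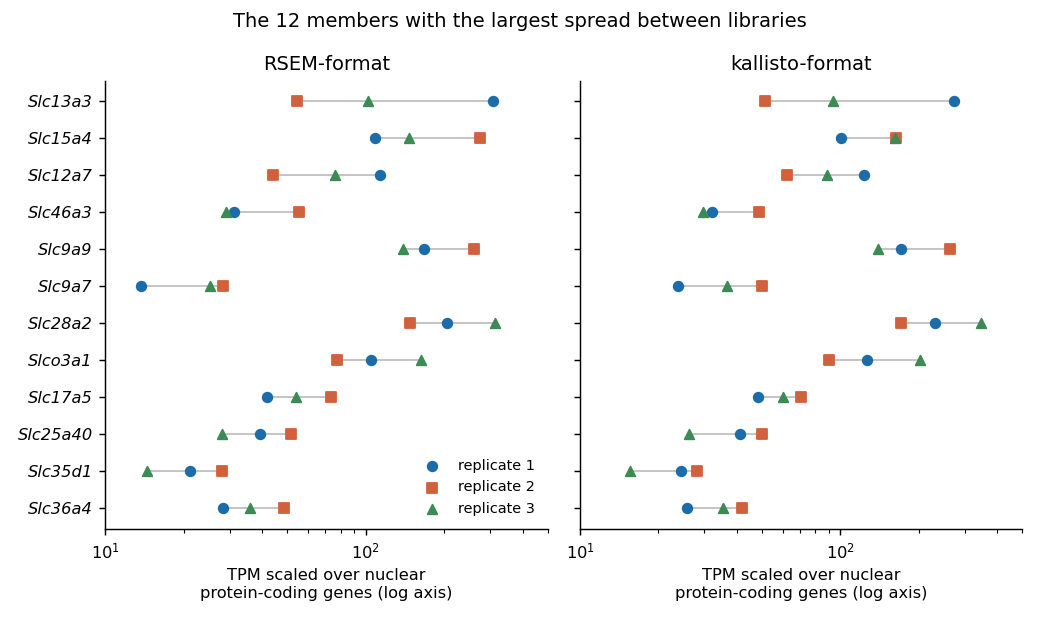
Values of the 12 members with the largest SD of log2(TPM + 1), scaled to a common sum over nuclear protein-coding genes on a log axis, in RSEM-format (left) and kallisto-format (right) values, with a symbol for each library. Slc13a3 is highest in replicate 1 in both panels, while the gap of Slc15a4 in replicate 2 is seen only on the left.

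The deposited quantifications gave most members like values once both were scaled to a common sum over nuclear protein-coding genes. Of the members, 150 lay within 2-fold, or 96.2%, against 96.6% of detected protein-coding genes, and Spearman's rho between the means was 0.976 over the 156 members. The 6 outside were all higher in the kallisto-format values, by 2.45 times for Slc22a15, 2.35 for Slc38a6, 2.20 for Slc25a18, 2.18 for Slc10a7, 2.03 for Slc18a1 and 2.01 for Slc16a6. Slc38a6 thus had 542 ± 97.9 in kallisto-format and 230 ± 43.9 in RSEM-format values. The lowest ratios were 0.72 for Slc25a28 and 0.74 for Slc25a22.

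Exons of 42 members share bases with a gene on the opposite strand and those of 9 with a gene on the same strand. On the opposite strand, Slc15a3 overlaps Tmem132a, Slc39a13 overlaps Psmc3 and Slc7a7 overlaps Oxa1l. The sources used here do not say whether the counting used strand, so the part of the partner's reads in these values was not tested. Of the other neighbours within 100 kb, Slc35b2 and Slc29a1 on chromosome 17 had 13.4 TPM each, Slc25a43 and Slc25a5 on chromosome X 5.20 and 47.9 TPM, and Slc7a6 and Slc7a6os on chromosome 8 2.04 and 12.6 TPM.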

How the data were processed

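Total RNA-seq of nuclear RNA was available for 3 libraries of 1 group. Gene and transcript tables with RSEM's columns were made by the authors on the mm10 genome and GENCODE M21 annotation, per the file headers and notes. Names and versions of the tools are not stated in any source used. Deposited expected counts are estimates without normalisation, and were rounded before testing. Deposited TPM values sum to the same total in each library. FPKM, also deposited, is per length and depth and served as an alternative. A separate deposited transcript table, with the columns that kallisto writes, was summed per gene. Retained-intron shares are the TPM of transcripts of that GENCODE class over the gene's TPM.

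Much of TPM lies on short RNAs, and all other genes of a library are lowered alike by it. Nuclear protein-coding genes held 19.9% to 22.2% of TPM, so both tables were also scaled to a sum of 1000000 over these genes. Transcripts with a very small effective length can gain high TPM from few counts. Rows that name no annotated gene held 0.0547% to 0.827% of counts and were left out.

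Each library was compared with the other 2 with edgeR 4.0.16 (filterByExpr, TMM, robust quasi-likelihood fit, Benjamini-Hochberg adjustment, threshold 0.05) and, as an alternative, DESeq2 1.42.0, in R 4.3.3. Robust estimation was made the main choice after the data were seen, and the fit without it and the omission of short transcripts are added alternatives. Python 3.11.15, pandas 2.3.3, numpy 2.4.6 and matplotlib 3.10.9 were used. The members and lists were chosen with earlier results of these data known. Genes were named by a rule: the 20 highest means, the 3 highest and the lowest of each class, the 5 nearest the threshold on each side, the 8 most variable, the 8 highest and 4 lowest retained-intron shares, the 6 highest and 6 lowest ratios between quantifications, and set genes of macrophage transport. A gene taken by the rule is not reported here. Members named outside the rule, and the overlapping partners, were chosen after their values were seen. Substrate classes follow textbook family assignments.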

Additional observations from a re-analysis of the deposited data

Results flagged for a closer look

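Signal was also present below the detection threshold, in genes that do not count as members. Of the 233 matching genes that were not detected, 56 had more than 3 expected counts in every library, above the limit that a count of 0 allows. Slc16a1, with 148, 104 and 63 expected counts, is an example. The limit covers counting error only.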

How the results depend on the processing

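The number of members was 156 and lay between 138 and 187 under a TPM minimum of 0.5 or 2, posterior mean TPM, scaling over nuclear protein-coding genes and omission of short transcripts, but fell to 95 with kallisto-format TPM as deposited. Omitting each replicate gave 156 to 162, but a rule over fewer libraries cannot lower this count, so it is no check of it. The median level was 3.40 on the log2(TPM + 1) scale, 3.88 in FPKM, 5.55 and 5.61 after scaling the RSEM-format and kallisto-format values, and 0.30 over all matching genes with no filter. Omitting each replicate gave 3.32 to 3.47. The median retained-intron share was 19.6% of TPM, 11.2% of expected counts and 23.7% in kallisto-format values, and 19.2% to 20.0% without each replicate. With a pseudocount of 0.1, 53 of 79 named members and 8 of 13 class medians stayed within 1 SD. FPKM and both scalings mainly shift all genes of a library together, so counts of moved levels are not given for them. Omission of a replicate cannot move a mean of 3 libraries by 1 SD, so it is no check of the single levels or class medians.

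Genes that differed from the other libraries in replicate 1 numbered 49, against 76 with DESeq2, 12 with DESeq2 size factors, 0 without a count filter (edgeR, where 1057 had an unadjusted p under 0.05) and 29 without robust estimation. In replicate 2 they numbered 0, against 18 with DESeq2 and 349 without a filter, among them Slc12a7 and Slc13a3. In replicate 3 they numbered 1, against 33 with DESeq2 and 108 without a filter. The tests without a filter covered 24311 genes, against 14350 with it, and the same 156 members. The cause of the differing counts was not tested. Leaving out a replicate from these tests gives 1 library against 1, with no residual degrees of freedom, so no test was run. No paired analysis was possible because all libraries belong to 1 group.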
